A study of Homo sapiens with 6 samples.

Results

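The 45 genes described here encode proteins of G2 phase and mitosis, and were taken as a list of gene symbols. The rule that picks their rows uses no measured value, but the list was chosen with earlier results of these data known. All 45 were found among the 27234 rows of the deposited table, 1 row each. RNA was measured in A673, an Ewing sarcoma line with the EWS-FLI1 fusion, a chimera of EWSR1 and the DNA-binding end of the transcription factor FLI1. All cells were grown in DME medium with fetal bovine serum and were transfected with siRNA against FLI1 (siFLI1, 3 libraries) or with a scrambled siRNA (siControl, 3 libraries). RNA was taken 48 h later and its polyadenylated 3′ ends were sequenced in bulk. Both groups carry the fusion, A673 is the only line used, and the labels do not say which part of FLI1 the siRNA matches.

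Transcripts of these genes are scarce in G1 and build up through S phase, G2 and mitosis. In resting cells the DREAM complex holds their promoters silent, and in dividing cells B-MYB with the MuvB core, and later FOXM1, take its place. Many of these promoters carry a short element called the cell cycle genes homology region (CHR), where MuvB binds, and boxes bound by the factor NF-Y. Their summed level in bulk RNA follows how many cells are in G2 and mitosis as well as how much RNA each such cell holds, and the present measurements cannot tell a smaller share of such cells from less RNA per cell.

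None of the 45 genes passed the test, and most of them lay a little lower in siFLI1. Of the 45, 40 had a negative log2 fold change (siFLI1 over siControl) and 5 a positive one, TTK, CENPA, NUF2, KIF23 and ASPM, of which the largest was 0.16 for NUF2. Their median log2 fold change was −0.43, with a range of −1.46 to 0.16, where the median over all 9420 genes tested was 0.0052 and 49.6% of those genes were negative. The summed level of the 45 genes was 3921, 3712 and 3454 CPM (counts scaled to library size with TMM factors) in siFLI1 replicates 1, 2 and 3, and 4829, 4674 and 4973 CPM in siControl replicates 1, 2 and 3. Each siFLI1 library thus lay below each siControl library, and the mean of 3696 ± 234 CPM (SD, n = 3) in siFLI1 equals 76.6% of that in siControl, 4825 ± 149 CPM. In each of the 3 siFLI1 libraries, 38 of the 45 genes were below their siControl mean, against 52.3% to 53.3% of all tested genes. Of the same 45, 15, 29 and 25 lay below that mean in siControl replicates 1, 2 and 3, against 49.8% to 53.6% of all tested genes. Over genes, the median difference from the siControl mean log2 level was −0.42, −0.46 and −0.52 in siFLI1 replicates 1, 2 and 3.

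**Figure D1:**
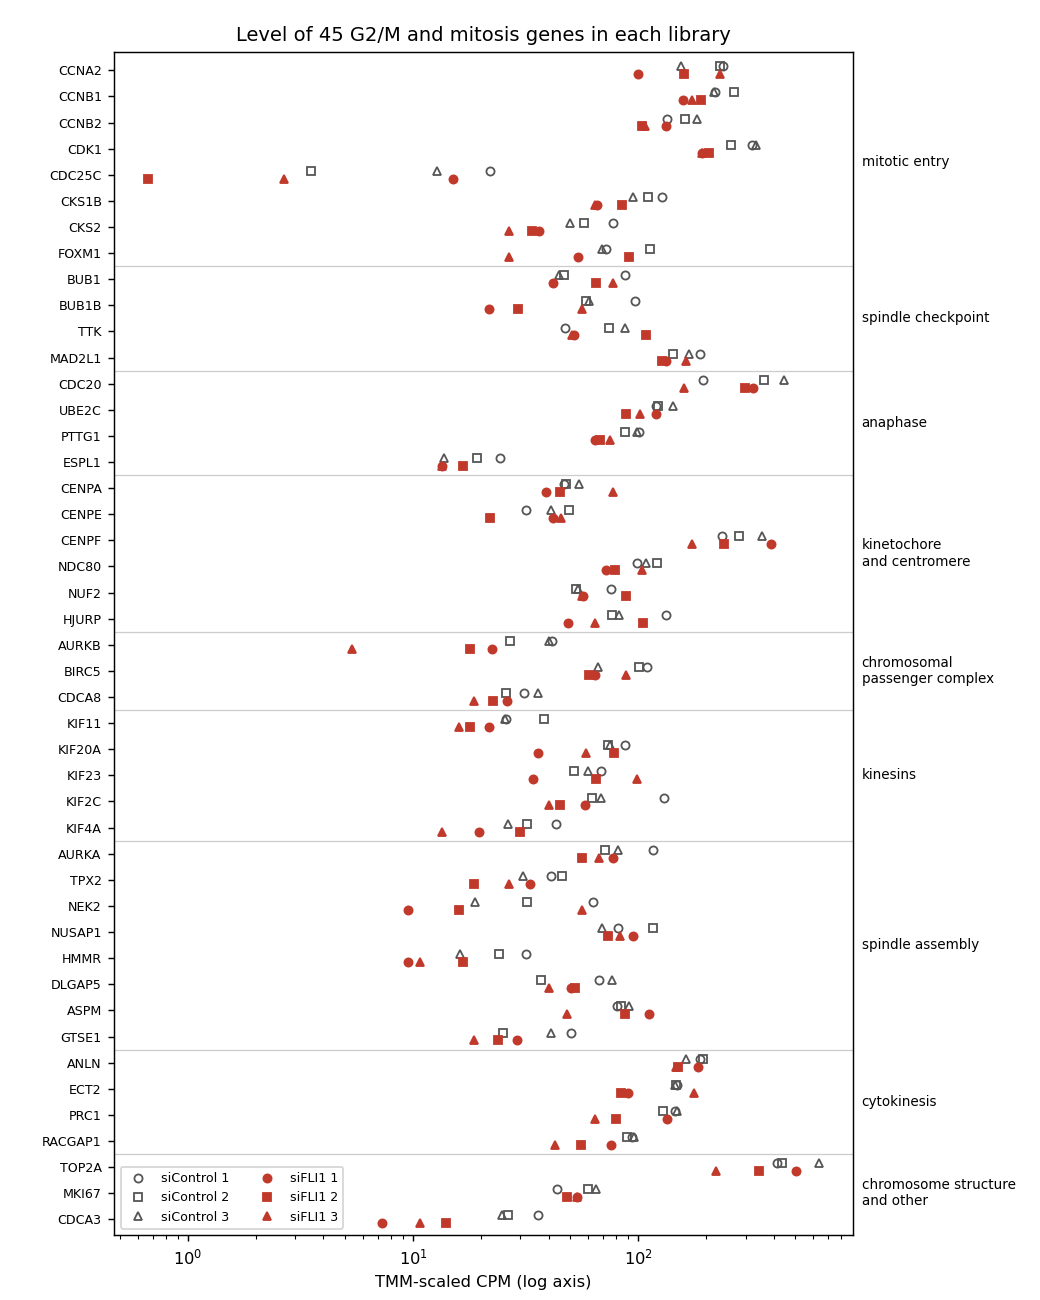
Library values of the 45 genes by role (log axis, TMM-scaled CPM), with siControl as open grey and siFLI1 as filled red symbols and replicates 1, 2 and 3 as circle, square and triangle. For 12 genes, among them CDK1, CKS2 and CDCA3, the red symbols all lie left of the grey ones, and for no gene do they all lie to the right.

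Each gene was tested with edgeR's quasi-likelihood test on all 9420 genes, with Benjamini-Hochberg adjustment and a threshold of 0.05. Of the 45 genes, 0 were called lower and 0 higher, and the smallest adjusted p was 0.191, for CDCA3. Over all tested genes, 0.117% were called lower and 1.34% higher. By an unadjusted p under 0.05, 8 of the 45 lay lower (CDK1, CKS1B, CKS2, BUB1B, AURKB, KIF2C, RACGAP1 and CDCA3) and 0 higher, against 4.13% and 6.62% of all tested genes. In 12 of the 45, these 8 with CCNB1, CCNB2, PTTG1 and KIF11, all siFLI1 libraries lay below all siControl libraries, and in 0 above, against 7.71% and 8.93% of all tested genes. Permuting the 6 CPM values exactly (two-sided) returned p = 0.1 for these 12, the lower limit for 3 libraries a group, and 0.2 to 1 for the other 33. DESeq2 and limma-voom also called 0 of the 45, and had 6 and 8 lower ones by unadjusted p. Standard errors of the 45 log2 fold changes ran from 0.24 to 0.86, with a median of 0.32. For 14 of the 45 the 95% interval excluded a 2-fold lower level, and for 31 it reached that far. Leaving out 1 library moved the log2 fold change by over 1.5 times, or turned its sign, in 28 of the 45.

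**Figure D2:**
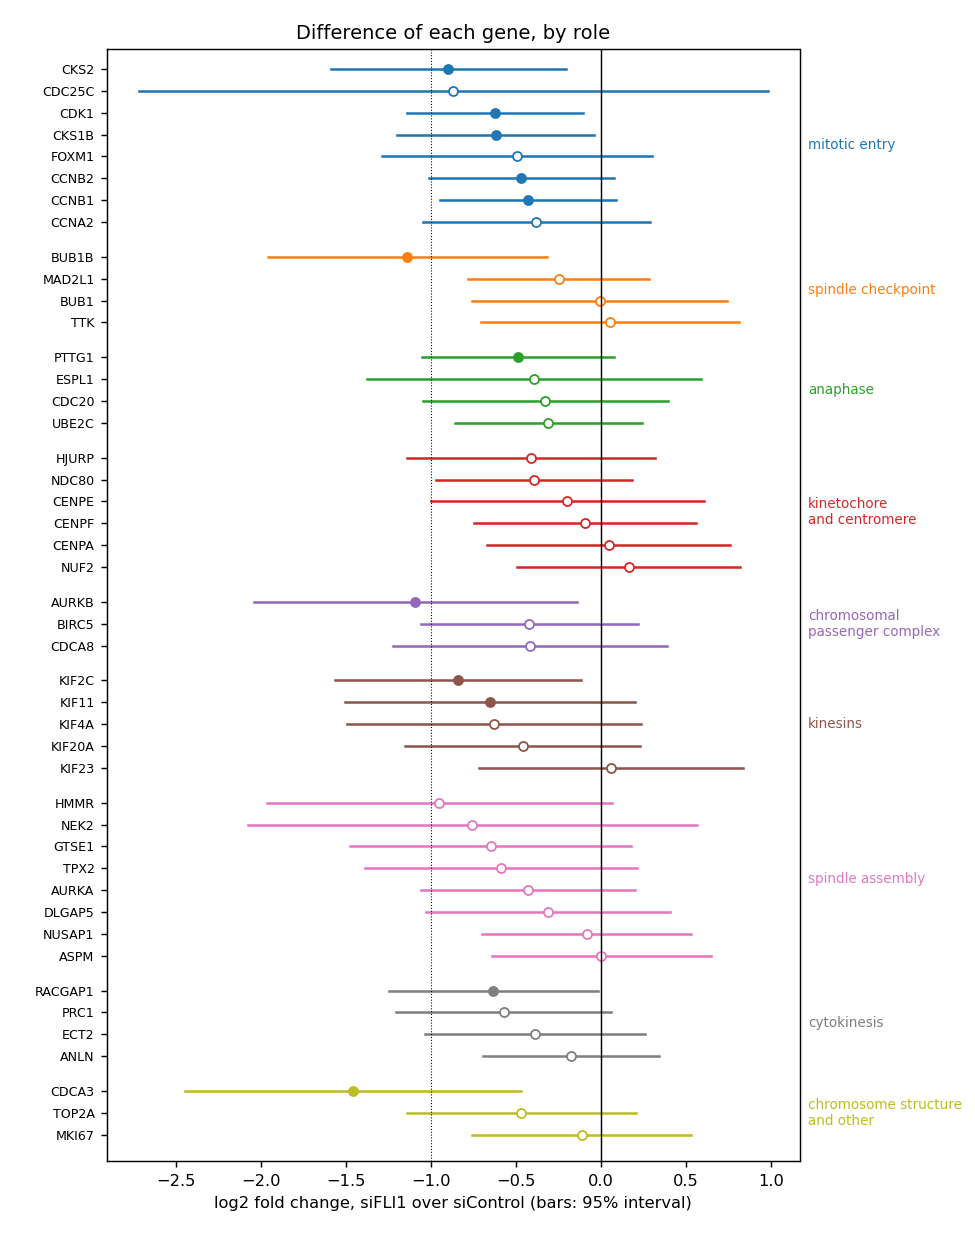
Log2 fold change of siFLI1 over siControl for the 45 genes, grouped by role, with the 95% interval of each gene alone (horizontal bars); filled circles are the 12 genes whose libraries do not overlap between the groups, and the dotted line is at −1. The point estimates run from −1.46 for CDCA3 to 0.16 for NUF2, and 37 of the 45 intervals reach 0 or above.

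The libraries differed in depth, from 417145 counts assigned to genes in siFLI1 replicate 3 to between 1248395 and 1893606 in the other 5. That library held 1290 counts in the 45 genes, against 5588 to 8968 in the others, and 9 of the 45 had fewer than 10 counts there. Gene counts made up 10.1% of the total that its header states, and 41.2% to 61.0% elsewhere. The TMM factor was 1.23 for siControl replicate 1 and 0.936 to 0.987 for the other 5 libraries. Of 7 marker genes of leukocytes, endothelium and epithelium, 4 to 6 were at 0 in each library. Their summed level was 0.664 to 17.9 CPM in 5 libraries and 50.9 CPM in siFLI1 replicate 3, of which 42.8 CPM was the leukocyte gene PTPRC, from 16 counts. Without that library the median log2 fold change of the 45 genes was −0.42. All 4 markers of Ewing sarcoma checked, CD99, NKX2-2, NR0B1 and STEAP1, had counts in each library, and NR0B1 and STEAP1 were lower in every siFLI1 library than in any siControl library. The groups overlapped in CD99 (log2 fold change −0.28) and NKX2-2 (−0.91). Of all tested genes, 7.71% lay below without overlap. In siControl replicate 1, 20 of the 45 genes had their highest level of the 6 libraries, and without it and siFLI1 replicate 3 the median was −0.35. The row of FLI1, the target, was at 19.01, 42.5 and 24.1 CPM in siFLI1 and 63.01, 69.1 and 62.4 CPM in siControl, without overlap. Its log2 fold change, −1.16 ± 0.36 (SE, edgeR adjusted p = 0.17), did not pass the threshold. Reads in this row may come from FLI1 or from the fusion, and were not told apart.

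The promoters were searched for the CHR and the NF-Y box, which the choice of genes did not use. RefSeq (GRCh38.p14) gave windows of 250 bases before to 50 after the gene start for 38 of the 45 genes, the others being RACGAP1, TTK, UBE2C, AURKA, FOXM1, BIRC5 and TPX2. The letters TTTGAA (CHR) on either strand occurred in a window of 29 of these 38 genes, or 76.3%, and of 18.2% of the 27305 genes in the promoter table. CCAAT, the box bound by NF-Y, occurred on either strand in 32 of the 38 genes, or 84.2%, and in 39.7% of all genes. Both occurred in 1 window in 25 of the 38, or 65.8%, and in 7.26% of all genes. In 15 of the 38, or 39.5%, a CHR began between positions −40 and −15 from the gene start, against 1.79% of all genes; this stretch was chosen after the positions were seen. Among the 29 genes with TTTGAA the median log2 fold change was −0.41 and 7 had groups that did not overlap. Among the 9 without these letters the median was −0.46 and 4 did not overlap. Over all tested genes, 7.71% lay below and 8.93% above without overlap. Other spellings of the CHR were not searched, so the 9 are not shown to lack one. They include KIF2C, whose window belongs to another start than its counted row. A match describes letters and is not a binding site, and 2 pairs of a CHR and a CCAAT box shared bases.

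Stretches of 100 bases ending just before the gene start, 5′ to 3′ on the gene's strand (GRCh38.p14), show the spacing of the motifs in 8 genes. Capitals mark TTTGAA and CCAAT on either strand, so that TTCAAA and ATTGG are the same motifs read backwards. CDK1, CCNB2, CKS1B, CKS2, BUB1B and KIF11 are genes whose libraries did not overlap between the groups and whose stretch holds a CHR, CENPA has a CHR and a log2 fold change near 0, and KIF2C has neither motif in its window and no overlap between the groups. Where a gene has more than 1 window, as CDK1 has, the one with the most CHR matches is shown. CDCA3, whose libraries did not overlap between the groups either, is not shown. Its CHR begins at −3 and runs past the gene start.
CDK1, chr10:60778378-60778477, plus strand: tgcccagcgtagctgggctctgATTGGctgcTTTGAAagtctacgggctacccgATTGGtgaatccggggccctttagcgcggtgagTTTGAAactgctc
CCNB2, chr15:59105046-59105145, plus strand: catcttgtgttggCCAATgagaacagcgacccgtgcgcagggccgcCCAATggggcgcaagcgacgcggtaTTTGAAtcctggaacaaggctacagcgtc
CKS1B, chr1:154974581-154974680, plus strand: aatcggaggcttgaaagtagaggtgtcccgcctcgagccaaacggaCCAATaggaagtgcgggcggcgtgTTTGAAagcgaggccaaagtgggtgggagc
CKS2, chr9:89311095-89311194, plus strand: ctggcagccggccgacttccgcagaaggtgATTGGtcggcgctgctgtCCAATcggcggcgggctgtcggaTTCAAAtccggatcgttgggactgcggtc
BUB1B, chr15:40160969-40161068, plus strand: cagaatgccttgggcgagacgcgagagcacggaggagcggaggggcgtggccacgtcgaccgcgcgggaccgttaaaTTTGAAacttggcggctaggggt
KIF11, chr10:92593030-92593129, plus strand: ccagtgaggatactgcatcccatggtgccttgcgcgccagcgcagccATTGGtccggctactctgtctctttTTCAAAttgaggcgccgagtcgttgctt
CENPA, chr2:26785956-26786055, plus strand: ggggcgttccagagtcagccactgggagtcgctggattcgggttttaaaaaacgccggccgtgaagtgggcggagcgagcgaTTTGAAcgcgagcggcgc
KIF2C, chr1:44739737-44739836, plus strand: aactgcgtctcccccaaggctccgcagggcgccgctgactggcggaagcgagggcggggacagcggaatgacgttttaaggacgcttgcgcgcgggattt
In CCNB2, CKS1B and CKS2 a CHR began at position −29, −30 and −29 and a CCAAT box at −54, −54 and −52. KIF11 had the same arrangement at −28 and −53, while BUB1B had a CHR at −23 and no CCAAT box in its window. The rows counted start within 147 bases of the RefSeq start shown for 7 of these 8 genes, but 6525 bases downstream of it for KIF2C. The KIF2C stretch thus belongs to another start than that of its counted row. So does the CDK1 stretch, as the CDK1 row starts at 60778331, upstream of all the bases shown. In the other CDK1 window a CHR began at −161. The rows of CCNB2, CKS1B, BUB1B, KIF11 and CENPA start 39 to 62 bases upstream of the RefSeq start, within the bases shown. Their marked CHRs thus lie downstream of the start of the counted row. In CKS2 both starts are the same base.

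**Figure D3:**
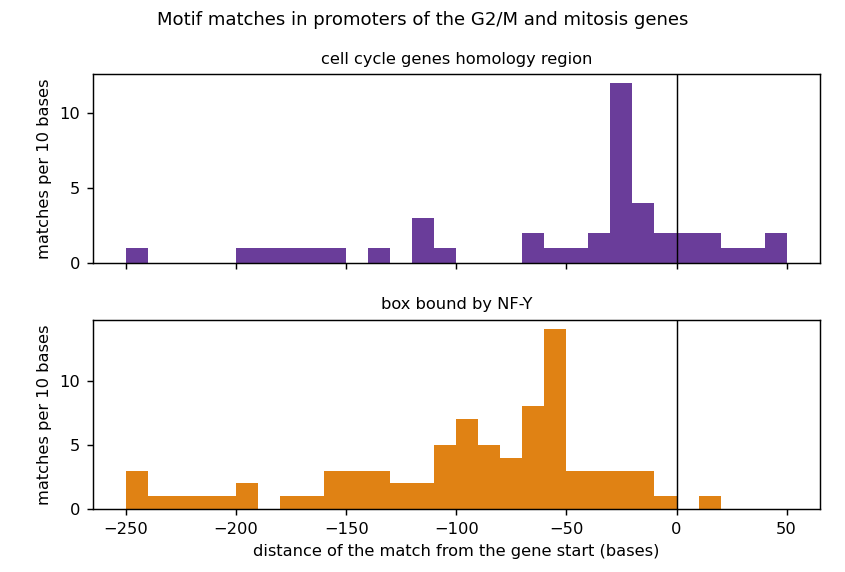
Number of motif matches per 10 bases against distance from the gene start in the promoter windows of the 38 genes found, for the CHR (top) and the box bound by NF-Y (bottom); genes with more than 1 start contribute each window. CHR matches crowd just upstream of the start, with 15 of 38 genes holding one between −40 and −15, and those of the NF-Y box lie farther upstream.

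The 8 genes of mitotic entry were all negative, with a median log2 fold change of −0.55. Their summed level was 755, 825 and 872 CPM in siFLI1 and 1114, 1203 and 1210 CPM in siControl (libraries in rising order), with no overlap. CDK1, the kinase that drives cells into mitosis (chromosome 10, 60778331 to 60794852, plus strand, all in hg38 coordinates), had levels of 192, 207 and 193 CPM in siFLI1 and 319, 258 and 333 CPM in siControl (replicates 1, 2 and 3, here and below). The 3 siFLI1 values lay close together and below the lowest siControl value, and their mean was 64.9% of the siControl mean (197 ± 8.29 CPM in siFLI1 and 304 ± 39.9 CPM in siControl; SD, n = 3). Its log2 fold change was −0.62 ± 0.24 (SE; 95% interval −1.14 to −0.11), with an unadjusted p of 0.0214 and an edgeR adjusted p of 0.336. CKS2, a small protein that binds CDK1 and helps it act on its substrates (chromosome 9, 89311195 to 89316703, plus strand), was at 36.3, 33.9 and 26.8 CPM in siFLI1 and 77.5, 57.4 and 49.6 CPM in siControl. The groups did not overlap, and the difference was −0.90 ± 0.32 on the log2 scale (SE; unadjusted p = 0.0146, edgeR adjusted p = 0.286). CKS1B, its paralog (chromosome 1, 154974642 to 154979249, plus strand), was at 65.4, 85.03 and 64.3 CPM in siFLI1 and 127, 110.1 and 94.9 CPM in siControl, again without overlap, at −0.62 ± 0.27 on the log2 scale (SE; unadjusted p = 0.0382, edgeR adjusted p = 0.425). Cyclins activate CDK1, and of these CCNB1 had a log2 fold change of −0.43 and CCNB2 of −0.47, both without overlap, and CCNA2, whose row overlaps EXOSC9 on the other strand, of −0.38 with overlap. The value of CCNA2 was −0.68 without siFLI1 replicate 3 and −0.11 without siFLI1 replicate 1. CDC25C, the phosphatase that switches CDK1 on, had −0.87 with the widest interval of the 45 (−2.72 to 0.98) and levels from 0.664 to 22.1 CPM. It was −3.35 without siFLI1 replicate 1 and −0.25 without siControl replicate 1. FOXM1, the transcription factor named above, had −0.49 ± 0.37, and its siFLI1 values ran from 26.8 to 91.0 CPM. It was −0.98 without siFLI1 replicate 2 and −0.23 without siFLI1 replicate 3.

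**Figure D4:**
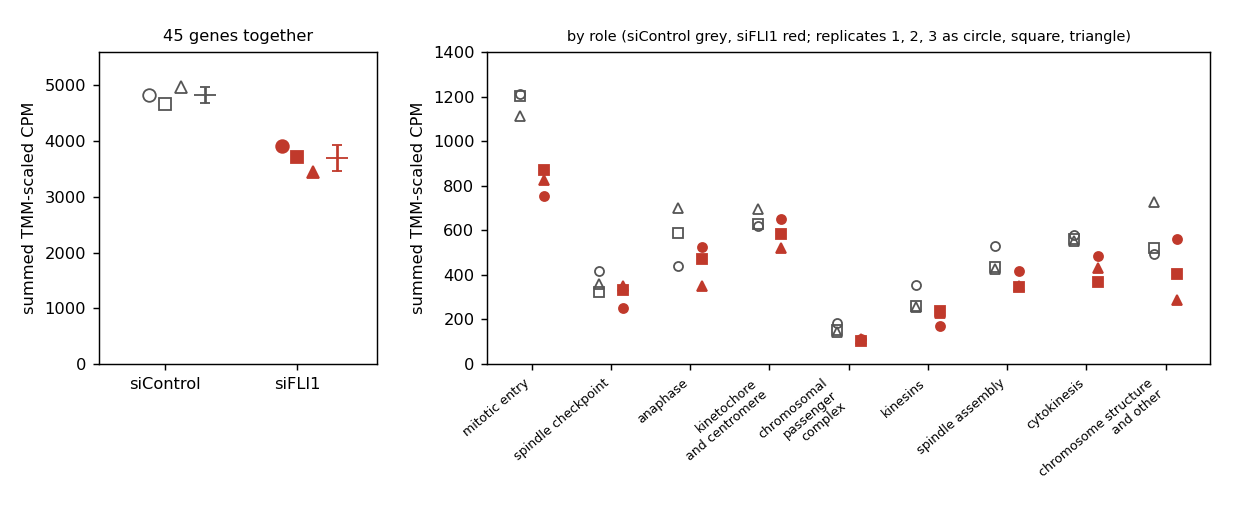
Summed TMM-scaled CPM per library of all 45 genes (left, with mean and SD beside the points) and of each role (right), with siControl as open grey and siFLI1 as filled red symbols. For the 45 genes together the siFLI1 libraries lie at 3454 to 3921 and the siControl libraries at 4674 to 4973, and 5 of the 9 roles show no overlap. Spindle assembly (highest siFLI1 415, lowest siControl 426) and kinesins (236 and 256) are among these 5 by narrow margins. The summed level of the 36 G1/S genes, not drawn here, shows no overlap either. How often other gene sets of such sizes show no overlap was not computed.

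Among the 4 genes of the spindle checkpoint, which holds cells in mitosis until all chromosomes are attached, BUB1B stood lowest. BUB1B, which encodes the checkpoint protein BUBR1 (chromosome 15, 40161009 to 40221136, plus strand), was at 21.8, 29.2 and 56.2 CPM in siFLI1 and 96.4, 58.6 and 60.7 CPM in siControl. siFLI1 replicate 3 was near the lower siControl values and the other two were far below, and the mean was 49.7% of siControl. Its log2 fold change was −1.14 ± 0.38 (SE; 95% interval −1.96 to −0.32; unadjusted p = 0.00996, edgeR adjusted p = 0.234). Over the fits that left out 1 library it ran from −1.50 to −0.85, with the lowest adjusted p, 0.0747, without siFLI1 replicate 3. MAD2L1, the protein that inhibits CDC20 when attachments are missing, was at 134, 128 and 163 CPM in siFLI1 and 188, 143 and 168 CPM in siControl. TTK, the kinase MPS1 that starts the checkpoint signal, was at 52.00, 108 and 50.9 CPM in siFLI1 and 47.4, 74.4 and 87.2 CPM in siControl. The groups overlapped in MAD2L1 (log2 fold change −0.25), TTK (0.055) and the kinase BUB1 (−0.0050), and without 1 library the sign of TTK (−0.43 to 0.26) and BUB1 (−0.17 to 0.35) turned.

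Of the 4 anaphase genes, CDC20 and UBE2C work with the anaphase-promoting complex, the ubiquitin ligase that ends mitosis. CDC20, its activator, was at 325, 299 and 161 CPM in siFLI1 and 193, 361 and 443 CPM in siControl, and the spread within each group exceeded the difference of the means. UBE2C, the ubiquitin-conjugating enzyme of the complex, was at 119.6, 88.4 and 102 CPM in siFLI1 and 119.6, 122 and 143 CPM in siControl, with the highest siFLI1 value level with the lowest siControl value. PTTG1, securin, which keeps separase inactive, was at 64.3, 67.8 and 74.97 CPM in siFLI1 and 101, 87.3 and 99.1 CPM in siControl, and was the 1 gene of this role without overlap, at −0.49 ± 0.26 on the log2 scale (SE; edgeR adjusted p = 0.556). ESPL1, separase itself, had −0.39 ± 0.46, and −0.58 to −0.21 over the fits without 1 library. PTTG1 has near-identical copies, and the rows PTTG3P and PTTG2 held 145 and 6 counts over the 6 libraries, so reads could be split among them.

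The 6 kinetochore and centromere genes had a median log2 fold change of −0.15, with 4 negative and 2 positive, and all 6 overlapped between the groups. CENPF, a large kinetochore protein, was at 391, 242 and 174 CPM in siFLI1 and 235, 282 and 355 CPM in siControl, so that siFLI1 replicate 1 was the highest and siFLI1 replicate 3 the lowest of the 6 libraries. NDC80, which grips the microtubule ends, was at 72.1, 79.1 and 104 CPM in siFLI1 and 98.5, 122 and 109 CPM in siControl, and its partner NUF2 at 57.03, 88.4 and 56.2 CPM in siFLI1 and 75.4, 52.7 and 53.8 CPM in siControl. Although both belong to 1 complex, NDC80 had a log2 fold change of −0.39 ± 0.27 and NUF2 of 0.16 ± 0.31 (SE), and these intervals overlap. HJURP, the chaperone that places the centromeric histone CENPA, was at 48.6, 106 and 64.3 CPM in siFLI1 and 133, 76.7 and 82.05 CPM in siControl, and CENPA itself had 0.046 ± 0.33. The motor CENPE had −0.20 ± 0.37. Over the fits that left out 1 library, CENPA ran from −0.24 to 0.24, NUF2 from −0.099 to 0.32, CENPE from −0.38 to 0.092 and CENPF from −0.47 to 0.13, so the sign of these 4 turned.

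The chromosomal passenger complex corrects faulty attachments and guides cytokinesis, and its 3 genes listed here were negative. AURKB, its kinase (chromosome 17, 8204731 to 8210249, minus strand), was at 22.4, 17.9 and 5.36 CPM in siFLI1 and 41.5, 26.9 and 40.2 CPM in siControl, from 40, 27 and 2 counts in siFLI1. All siFLI1 values were below the siControl values, and the difference was −1.09 ± 0.44 on the log2 scale (SE; 95% interval −2.04 to −0.14; unadjusted p = 0.0273, edgeR adjusted p = 0.385). Without siFLI1 replicate 3, whose value rests on the 2 counts, it was −0.83. BIRC5, survivin, was at 64.3, 60.5 and 88.4 CPM in siFLI1 and 109.9, 101 and 66.7 CPM in siControl, and CDCA8, borealin, at 26.3, 22.6 and 18.7 CPM in siFLI1 and 31.2, 25.8 and 35.9 CPM in siControl, both with overlap and log2 fold changes of −0.42 and −0.42. The summed level of the complex was 101, 112 and 113 CPM in siFLI1 and 143, 153 and 183 CPM in siControl in rising order.

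Of the 5 kinesins, the motor proteins of the spindle, 4 were negative, with a median of −0.63. KIF2C, which takes apart microtubules at centromeres (chromosome 1, 44746362 to 44767766, plus strand), was at 58.1, 45.2 and 40.2 CPM in siFLI1 and 130.3, 62.7 and 68.4 CPM in siControl, and siControl replicate 1 stood far above the other 5 libraries. The log2 fold change of −0.84 ± 0.34 (SE; unadjusted p = 0.0263, edgeR adjusted p = 0.378) was −0.45 without siControl replicate 1. KIF11, the motor that pushes the spindle poles apart, was at 21.8, 17.9 and 16.1 CPM in siFLI1 and 25.8, 38.1 and 25.6 CPM in siControl, with no overlap and −0.65 ± 0.40. KIF4A, a motor on chromosome arms, was at 19.6, 29.9 and 13.4 CPM in siFLI1 and 43.1, 32.2 and 26.5 CPM in siControl, and KIF20A, a motor of the central spindle whose row overlaps CDC23 on the other strand, at 35.8, 77.7 and 58.9 CPM in siFLI1 and 87.2, 73.2 and 75.2 CPM in siControl. KIF23, which bundles microtubules at the division site, had 0.059 ± 0.36, and siFLI1 replicate 3 was its highest library at 99.1 CPM. Without 1 library the value of KIF23 ran from −0.28 to 0.41. The row of KIF4B, a near-identical copy of KIF4A, held 0 counts.

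All 8 genes of spindle assembly overlapped between the groups, with a median of −0.51. HMMR, which links spindle microtubules to their poles, was at 9.5, 16.6 and 10.7 CPM in siFLI1 and 31.8, 24.01 and 16.2 CPM in siControl, with the highest siFLI1 value just above the lowest siControl value and a difference of −0.95 ± 0.47 on the log2 scale (SE; edgeR adjusted p = 0.509). TPX2, which activates the kinase AURKA on the spindle, was at 32.99, 18.6 and 26.8 CPM in siFLI1 and 40.9, 45.7 and 30.8 CPM in siControl, and GTSE1, a microtubule regulator, at 29.1, 23.9 and 18.7 CPM in siFLI1 and 50.1, 25.2 and 41.02 CPM in siControl. NUSAP1, a microtubule bundling protein, was at 95.05, 73.7 and 83.00 CPM in siFLI1 and 81.3, 116 and 69.2 CPM in siControl, and its values were mixed between the groups. AURKA had −0.43, and was −0.57 without siControl replicate 2 and −0.22 without siControl replicate 1. DLGAP5 had −0.31, and was −0.57 without siControl replicate 2 and −0.11 without siControl replicate 3. ASPM, a spindle pole protein, had 0.0043, and its sign turned in 10 of the 15 alternative analyses. NEK2, a centrosome kinase, had −0.75 with values that differed within groups, from 9.5 to 56.2 CPM in siFLI1 and from 18.8 to 63.01 CPM in siControl. It was −1.60 without siFLI1 replicate 3 and −0.18 without siControl replicate 1.

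The 4 genes of cytokinesis, the division of the cell body, were negative, and their summed level was 369, 431 and 485 CPM in siFLI1 and 554, 559.9 and 578 CPM in siControl in rising order. RACGAP1, a subunit of the centralspindlin complex (chromosome 12, 49989162 to 50025557, minus strand), was at 76.04, 55.8 and 42.8 CPM in siFLI1 and 94.2, 89.02 and 95.7 CPM in siControl. The siControl values lay close together above all siFLI1 values, and the log2 fold change was −0.63 ± 0.29 (SE; unadjusted p = 0.0444, edgeR adjusted p = 0.445). PRC1, which crosslinks the central spindle, was at 134, 79.7 and 64.3 CPM in siFLI1 and 146, 129 and 149.6 CPM in siControl, with siFLI1 replicate 1 inside the siControl range. ECT2, the exchange factor that switches on RhoA for the contractile ring, was at 90.02, 83.7 and 177 CPM in siFLI1 and 149, 147 and 146 CPM in siControl, and siFLI1 replicate 3 lay above all siControl values while the other two lay far below. Without that library its log2 fold change was −0.76 (edgeR adjusted p = 0.272), against −0.39 with it, and it was −0.19 without siFLI1 replicate 2. ANLN, anillin, a scaffold of the ring, was at 185, 150.1 and 147 CPM in siFLI1 and 189, 195 and 162 CPM in siControl, with overlap and −0.18, or −0.29 without siFLI1 replicate 1.

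The remaining 3 genes, of chromosome structure and other roles, included the lowest log2 fold change of the 45. CDCA3, which encodes an adaptor of a ubiquitin ligase that removes the mitotic inhibitor WEE1 (chromosome 12, 6848808 to 6851930, minus strand), was at 7.27, 13.95 and 10.7 CPM in siFLI1 and 36.1, 26.4 and 24.8 CPM in siControl, from 13, 21 and 4 counts in siFLI1. All siFLI1 values lay below the siControl values, and the mean was 36.6% of siControl. Its log2 fold change was −1.46 ± 0.46 (SE; 95% interval −2.45 to −0.47; unadjusted p = 0.00688, edgeR adjusted p = 0.191), and it ran from −1.79 to −1.18 over the fits that left out 1 library. TOP2A, the topoisomerase that untangles sister chromatids, was at 500.4, 343 and 222 CPM in siFLI1 and 415, 436 and 638 CPM in siControl, and its overlap came from siFLI1 replicate 1. MKI67, the proliferation marker Ki-67, was at 53.7, 48.5 and 53.6 CPM in siFLI1 and 43.6, 59.7 and 64.96 CPM in siControl, with −0.11 ± 0.30 (SE; 95% interval −0.75 to 0.53). It was −0.30 without siControl replicate 1 and −0.00090 without siControl replicate 3.

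The other genes of the pathway, 118 listed by role, were negative for the most part too. Of the 107 tested, 76 were negative, with a median of −0.27, and 0 passed the threshold. By unadjusted p, 14 lay lower and 2 higher, against 4.13% and 6.62% of all tested genes. The groups did not overlap in 19 that lay below and 3 above, against 7.71% and 8.93%. The 3 with the smallest unadjusted p among negative values were the condensin subunit NCAPG2, with −1.46 ± 0.40 (SE; edgeR adjusted p = 0.111), the spindle protein TACC3, with −1.39 ± 0.39 (0.122), and the centromere protein CENPM, with −2.06 ± 0.60 (0.137), which had 0 counts in siFLI1 replicate 3. Among positive values they were the cohesin subunit SMC3, with 0.72 ± 0.33, ANAPC10 of the anaphase-promoting complex, with 0.82 ± 0.38, and the centromere protein CENPQ, with 1.13 ± 0.53. Of 13 tested genes of the anaphase-promoting complex and its partners, 5 were negative (median 0.068), while of 32 other spindle and cytokinesis genes 27 were (median −0.34). PLK1, the mitotic kinase, was at 19.6, 28.6 and 18.7 CPM in siFLI1 and 65.7, 38.1 and 42.7 CPM in siControl, without overlap, and had −1.10 ± 0.37 (SE; edgeR adjusted p = 0.24). Of the 10 listed regulators (MuvB, B-MYB and E2F), 7 were tested, with 5 negative, 2 positive and a median of −0.38. The positive ones were RBL2, at 0.79 ± 0.49, and LIN9, at 0.12 ± 0.54 (SE), both with overlap between the groups. The lowest was MYBL2, which encodes B-MYB, at −1.21 ± 0.36 (SE, edgeR adjusted p = 0.16). MYBL2 was at 20.1, 17.3 and 21.4 CPM in siFLI1 and 53.9, 35.7 and 44.4 CPM in siControl, without overlap. Its value was already known when it was picked out for mention. With no filter on low counts 4 of the 118 passed, CENPM, MASTL, NCAPG2 and TACC3, all lower.

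Genes of G1/S and DNA replication, the phase before, served for comparison. Of 36, all tested, 31 were negative, with a median of −0.42, close to the −0.43 of the G2/M and mitosis genes, and the difference between the lists was not tested. By unadjusted p, 5 lay lower (4.13% of all tested genes), and 8 lay below without overlap (7.71%). Their summed level did not overlap either, at 2827 to 3555 CPM in siFLI1 and 3935 to 4894 CPM in siControl. The siFLI1 mean was 75.0% of siControl, against 76.6% for the G2/M and mitosis genes. The sums of the other mitosis genes overlapped (95.4%). A CHR occurred in the promoter windows of 2 of 29 G1/S genes found, or 6.9%, of 45 of 105 other mitosis genes, or 42.9%, and of 76.3% of the G2/M and mitosis genes. A CCAAT box occurred in 62.1% of the G1/S genes, 56.2% of the other mitosis genes and 84.2% of the G2/M and mitosis genes. These shares were not tested against each other.

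**Figure D5:**
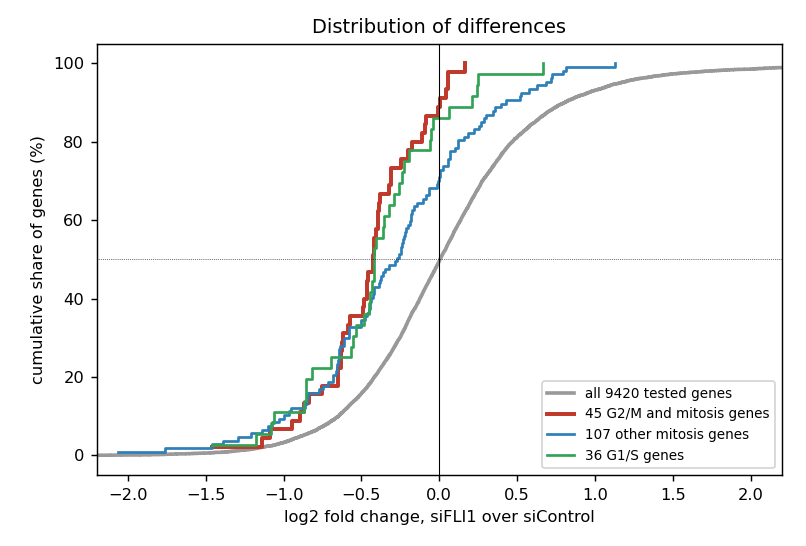
Cumulative share of genes in percent against log2 fold change of siFLI1 over siControl, for all 9420 tested genes (grey), the 45 G2/M and mitosis genes (red), 107 other mitosis genes (blue) and 36 G1/S genes (green). The median is 0.0052 for all genes, −0.43 for the red, −0.27 for the blue and −0.42 for the green curve.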

How the data were processed

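The 6 A673 libraries were prepared by a variant of MARS-seq with molecular barcodes, per the labels' protocols. The authors deposited 1 table of raw exon counts, each gene a RefSeq transcript. The submitters' processing notes name bcl2fastq, HISAT 0.1.5, HOMER and hg38 without roles. Barcode collapse and strand use are not given in the sources used here. PCR copies may be counted, and overlapping genes may share reads.

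Genes were kept by edgeR's filterByExpr (minimum count 10, minimum total 15), which left 9420 of 27234 rows and all 45 genes, and libraries were scaled by TMM. The two-sided test was glmQLFTest of edgeR 4.0.16 after a robust glmQLFit, under R 4.3.3, with limma 3.58.1 and DESeq2 1.42.0 as alternatives, and the code was tested on simulated data. Standard errors and 95% intervals were derived from the F statistic. CPM were computed here from those counts with TMM scaling. These libraries read 3′ ends, so single levels are compared within a gene. The summed levels and the pick of the highest mean in a role do set genes side by side by CPM. Such sums follow the more abundant genes, as TOP2A, with 355 of the 418 CPM in the siFLI1 mean of its role. Replicates of a group differed by more than the counting error of independent reads (lowest chi-square over degrees of freedom 6.78), a limit that PCR copies alone can exceed. Whether they were separate cultures is not in the labels, so the spread behind each p-value may be technical. The genes, lists and tests were chosen with earlier results of these data known. Values per library are printed for up to 3 genes of each role with the smallest unadjusted p and the 1 with the highest mean, 31 in all.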

Additional observations from a re-analysis of the deposited data

How the results depend on the processing

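Of the 45 genes 0 were called in any of 15 alternatives, and their median kept its sign, from −0.57 under total counts to −0.35 without siFLI1 replicate 3 and siControl replicate 1. Total counts moved the median of all genes to −0.12, and against that the 45 were at −0.45; with no filter these were 0.12 and −0.59. Those of the 45 with an unadjusted p under 0.05 numbered 5 to 10 lower and 0 higher, and the smallest adjusted p ran from 0.0617 to 0.352. Total counts gave medians of −0.42 for the other mitosis and −0.52 for the G1/S genes, and leaving out both libraries gave −0.37 for the former. Over fits without 1 library these ran from −0.38 to −0.26 and −0.48 to −0.32. With no filter 4 other mitosis and 2 G1/S genes were called lower, and DESeq2 called 1 of the latter. Of all genes, 11 were called lower and 126 higher, and the lower count was 17 under total counts, 62 with no filter, 34 in DESeq2, 2 with the replicate block and 32 without both libraries; without 1 library 1 to 7 were lower and 64 to 121 higher, and with no filter 306 were higher. The replicate number as a block left the 45 at a median of −0.44 and 0 calls. Deviations of same-numbered libraries correlated at −0.018, −0.016 and −0.036, and no library correlated best with its own number. The numbers were therefore not treated as a pairing. For 35 of the 45 the sign held in all 15. For the others it turned in at least 1: TTK −0.028, CENPA −0.069, KIF23 −0.076 and ASPM −0.12 under total counts, CENPA −0.0087 and ASPM −0.034 with no filter, CENPA −0.091 and KIF23 −0.17 in limma-voom, ASPM −0.011 in DESeq2, ASPM −0.0061 with DESeq2 size factors, ASPM −0.027 with upper quartile scaling, BUB1 0.039 and ASPM −0.067 with the block, and CDC25C 0.032, BUB1 0.21, TTK −0.023, CENPA −0.29 and KIF23 −0.19 without both libraries. Without 1 library, BUB1 ran from −0.17 to 0.35, TTK ran from −0.43 to 0.26, CENPA ran from −0.24 to 0.24, CENPE ran from −0.38 to 0.092, CENPF ran from −0.47 to 0.13, NUF2 ran from −0.099 to 0.32, KIF23 ran from −0.28 to 0.41, NUSAP1 ran from −0.23 to 0.16 and ASPM from −0.27 to 0.23. The cause of these moves was not tested. In siFLI1 replicate 3, 9 of the 45 had under 10 counts.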
